A study of Mus musculus with 4 samples.

Results

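Chemokines are small secreted proteins that guide the movement of cells, and 10 of their genes were followed across 4 cell lines of mouse pancreatic cancer: the CC chemokines Ccl20, Ccl2 and Ccl7, the CXC chemokines Cxcl1, Cxcl5, Cxcl10, Cxcl12, Cxcl15 and Cxcl16, and the CX3C chemokine Cx3cl1. They were matched by gene symbol among 19938 named genes, and each is measured by 1 transcript cluster, the set of array probes that stands for a gene. The genes were chosen by name with their log2 signals in the 4 lines already known, Ccl20 because it separates the genotypes, so their levels and differences are given as a description without a test. All 10 lay above the 40th percentile of mean signal, the lowest (Ccl20) at percentile 62.9; genes at or below the 40th (log2 6.96) are called dim here.

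The lines were grown from digested pancreatic tumours of genetically engineered mice. All carried Ela-TGFa, a transgene in which an elastase promoter drives TGF-α in the pancreas, together with Ptg1a+/CRE, as the labels spell the Cre allele (p48-Cre, active in the pancreas, in the study's methods), and floxed p53 (Trp53fl/fl). The TPC lines TPC18645 and TPC20223 had this genotype, and the TPAC lines K459 and TCPA18654 had p65fl/fl in addition, so that Cre also removes RelA/p65, a subunit of NF-κB. No treatment was given, and there was 1 array for each line. Every cell of a line is measured in bulk, so fewer cells of a type and less RNA per cell cannot be told apart. The ages of the mice and whether each line is from a different mouse are not given in the sources used here. All values are log2 signals, so a difference of 1 is a 2-fold change, and because probes differ in brightness a level is compared only with the same gene in another line.

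Chemokines are classed by the spacing of their first cysteines. The CXC chemokines of the Cxcl1 and Cxcl5 kind act through the receptor Cxcr2 and draw neutrophils, Ccl2 and Ccl7 draw monocytes through Ccr2, Ccl20 draws lymphocytes and dendritic cells through Ccr6, and Cxcl10 is an interferon-induced ligand of Cxcr3. Cxcl12 signals through Cxcr4 and Ackr3, whereas Cxcl16 and Cx3cl1 are made as membrane-bound proteins that can be shed. Many of these genes are textbook targets of NF-κB. The study asked which soluble factors act between nerves and cancer cells, and CCL2 with its receptor CCR4 was among those it tested.

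The lines were not equally alike. TPC18645 and TCPA18654, which are labelled with different genotypes, differed by a log2 of 1 or more in 54 of 19938 genes (0.271%), and 95% of genes differed by 0.41 or less between them. TPC20223 differed this much from each other line in 10.9 to 11.2% of genes, and K459 from TPC18645 and TCPA18654 in 4.34% and 3.87%. Of 8 ductal and epithelial markers, 7 were lowest in TPC20223, with a summed signal of log2 11.41 there against 14.90 to 15.55 in the other lines. Of 8 fibroblast markers, 6 were highest in TPC20223, where their summed signal was 13.96 against 12.06 to 12.37 in the other lines. Krt19, the cytokeratin of ductal cells, was at 6.08 in TPC20223, under the dim limit of 6.96, and between 11.74 and 12.65 elsewhere. Krt18, the marker of widest range, was at 6.50 and at 12.92 to 13.30, so Krt19 and Krt18 were low in 1 of the 4 lines labelled as pancreatic tumor cells. Not all 8 markers followed them. Epcam was at 6.43 in TPC20223 but also low in TPC18645 (6.82), with 7.37 in TCPA18654 and 9.77 in K459. Sox9 was lowest in TCPA18654 (10.14) and stood at 10.89 in TPC20223. Markers of neutrophils, lymphocytes and endothelium were all dim by mean signal (0 of 15 measured above the 40th percentile), as was Ptprc, the pan-leukocyte gene, at 5.61 to 6.02. In TPC20223 alone the endothelial markers Tek (7.15) and Kdr (7.02) were above 6.96, against 5.80 to 5.85 and 6.13 to 6.20 elsewhere. Of the 5 endothelial markers, 2 were highest and 2 lowest in TPC20223. Of 7 macrophage markers, Cd68 and Cd14 were not dim, and Cd14 ran from 6.66 in TPC20223 to 10.53 in K459. Of 5 acinar markers 1 was not dim, with summed signals of 8.76 to 9.39, and of 4 Schwann cell and neuron markers 3 were not dim, with summed signals of 8.92 to 9.78. Rela itself had signals of 10.82 (K459) and 11.10 (TCPA18654) in TPAC and of 11.12 (TPC18645) and 10.70 (TPC20223) in TPC. These overlap, but probes outside the floxed exons still bind, so they are no check of the deletion. The genotypes of the alike pair TPC18645 and TCPA18654 thus rest on the labels alone, as does each TPAC minus TPC value.

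**Figure D1:**
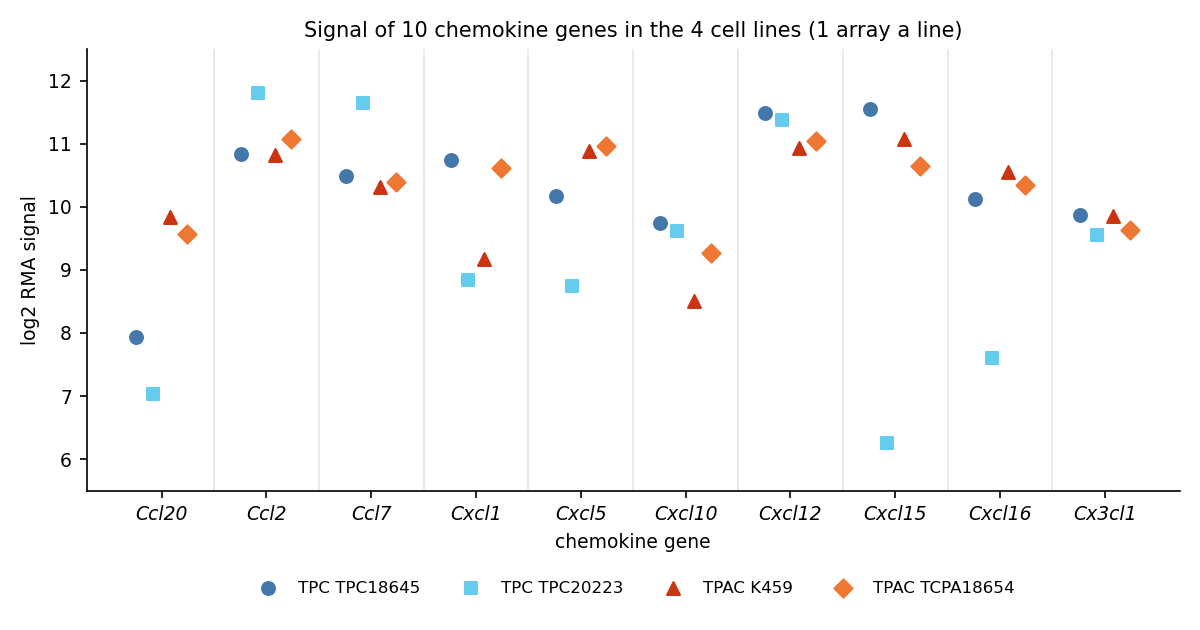
Log2 RMA signal (y axis) of the 10 chemokine genes (x axis) in the TPC lines TPC18645 and TPC20223 and the TPAC lines K459 and TCPA18654; each point is 1 array. Ccl20 lies at 9.57 and 9.84 in the TPAC lines and at 7.04 and 7.93 in the TPC lines, and Cxcl15 falls to 6.26 in TPC20223.

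Of the 10 chemokines, Ccl20 was the one whose genotypes lay furthest apart. Its signal was 9.84 in K459 and 9.57 in TCPA18654, against 7.93 in TPC18645 and 7.04 in TPC20223. The TPAC mean was 9.71 ± 0.19 (SD, n = 2) and the TPC mean 7.49 ± 0.63 (SD, n = 2), a log2 difference of 2.22, or 4.66-fold. Without TPC20223, the line that stands apart, it was 1.78. The lower TPAC line stood 1.64 above the higher TPC line, and no other of the 19938 genes had a wider gap in this direction; the next, Akr1c19, had 1.21. Only 8 genes (0.0401%) had both TPAC lines above both TPC lines by a log2 of 1 or more, and 1 gene (0.00502%), none of the 10, had both below by as much. Because Ccl20 was picked for this separation, its rank is no independent support. Between TCPA18654 and TPC18645, the closest pair of lines, Ccl20 differed by 1.64 and ranked 7th of all genes by size. The TPAC lines differed by 0.27 and the TPC lines by 0.89, so the former differed by less than the 0.41 to which 95% of genes kept between the closest pair. The summed signal of the 8 ductal and epithelial markers was highest in K459 (15.55) and by far the lowest in TPC20223 (11.41). It lay close together in TCPA18654 (15.05) and TPC18645 (14.90). The part of this sum in the Ccl20 result was not tested.

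The genes whose profile over the 4 arrays came nearest to that of Ccl20 were Gzme, Cxcl5, Sult1c2, Slc26a2 and Galnt3. Likeness was the root mean square difference between profiles centred on their own mean, and it ran from 0.32 for Gzme to 0.48 for Galnt3. Cxcl5 was second with 0.44. Gzme encodes a granzyme, Slc26a2 a sulfate transporter and Galnt3 an enzyme of mucin-type glycosylation. With 4 arrays, 2 of them alike, this is a description of these lines.

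The promoter of Ccl20 is shown because the genotypes differ in an NF-κB subunit and Ccl20 separated them. Those of Cxcl1, Cxcl10 and Cxcl15 are shown as examples of genes that did not follow Ccl20. Cxcl12 and Cx3cl1 did not follow it either, and their promoters are not printed. RefSeq promoter windows of GRCm38.p6, from 250 bases before to 50 bases after the annotated start, matched 6 of the 10 genes; Ccl2, Ccl7, Cxcl5 and Cxcl16 had no entry. The 250 bases before the start are printed on the strand of the gene, 5′ to 3′. Capitals mark matches on either strand to the κB consensus, AP-1 (TGANTCA), the interferon-stimulated response element or ISRE (GAAA, then NN, then GAAA) and the TATA box (TATAAA). The stretches lie at chr1:83116516-83116765 (plus strand, Ccl20), chr5:90890995-90891244 (plus strand, Cxcl1), chr5:92348890-92349139 (minus strand, Cxcl10) and chr5:90794284-90794533 (plus strand, Cxcl15).
Ccl20: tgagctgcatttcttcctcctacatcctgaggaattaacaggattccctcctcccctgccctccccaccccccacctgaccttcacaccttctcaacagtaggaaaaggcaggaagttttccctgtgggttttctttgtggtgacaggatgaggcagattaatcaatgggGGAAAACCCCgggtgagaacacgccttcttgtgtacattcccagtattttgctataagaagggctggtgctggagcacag
Cxcl1: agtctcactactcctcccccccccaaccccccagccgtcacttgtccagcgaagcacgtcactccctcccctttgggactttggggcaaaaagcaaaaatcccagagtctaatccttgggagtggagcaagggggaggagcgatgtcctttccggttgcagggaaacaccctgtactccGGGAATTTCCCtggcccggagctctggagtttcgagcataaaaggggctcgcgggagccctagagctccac
Cxcl10: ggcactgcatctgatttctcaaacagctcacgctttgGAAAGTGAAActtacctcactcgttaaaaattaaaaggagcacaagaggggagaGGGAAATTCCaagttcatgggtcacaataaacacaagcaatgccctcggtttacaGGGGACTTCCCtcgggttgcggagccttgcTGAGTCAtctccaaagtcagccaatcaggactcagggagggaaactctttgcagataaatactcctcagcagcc
Cxcl15: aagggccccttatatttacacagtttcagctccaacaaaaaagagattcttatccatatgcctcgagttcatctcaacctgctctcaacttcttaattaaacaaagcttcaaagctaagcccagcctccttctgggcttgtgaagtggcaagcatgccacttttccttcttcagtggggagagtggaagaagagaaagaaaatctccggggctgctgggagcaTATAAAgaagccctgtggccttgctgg

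The κB consensus was found in 3 of the 6 windows, those of Ccl20, Cxcl1 and Cxcl10, against 8.46% of all 32851 promoter windows of this length. In Ccl20 the match spanned bases -80 to -71 from the start. In Cxcl1 overlapping matches on both strands covered -71 to -61. Cxcl10 held matches at -159 to -150 and at -104 to -94, beside an ISRE at -213 to -204 and an AP-1 match at -74 to -68; ISRE was present in 3.44% and AP-1 in 7.81% of all windows. Cxcl15 held only a TATA match, at -27 to -22, and Cx3cl1 one at -6 to -1 (13.6% of all windows). With a looser κB pattern, GGG and CC with NNNNN between them on either strand, which overlaps the consensus and is held by 50.8% of all windows, Cxcl12 was added. Of the 3 genes with a κB consensus match, Ccl20 was higher in both TPAC lines, Cxcl10 was lower in both, and Cxcl1 overlapped between genotypes.

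**Figure D2:**
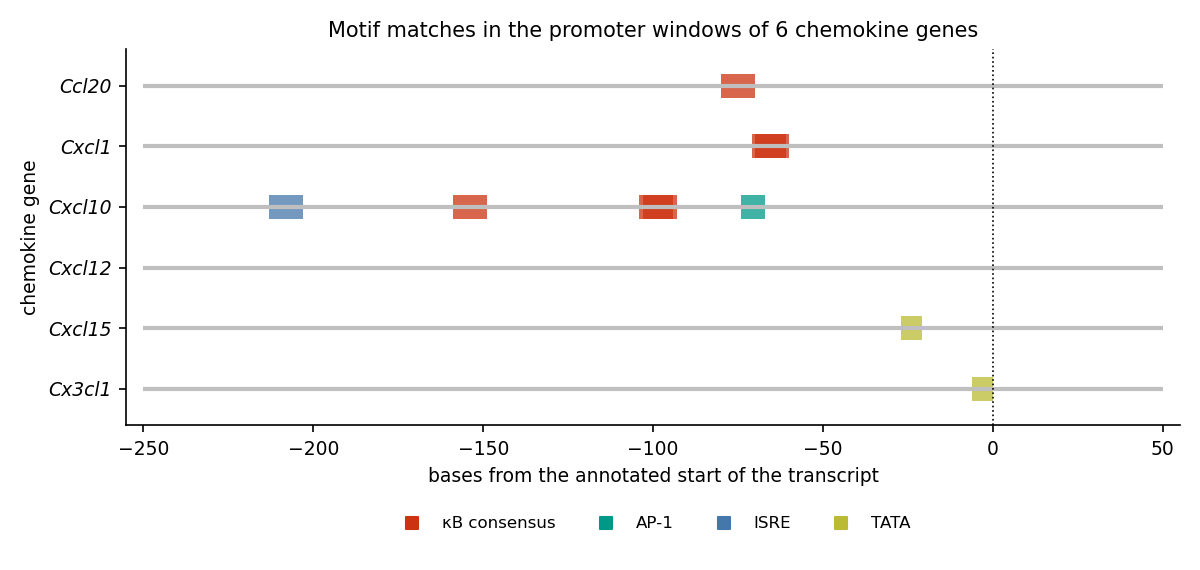
Matches to the κB consensus, AP-1, ISRE and TATA box (coloured boxes) along the promoter windows of 6 chemokine genes; the x axis gives bases from the annotated transcript start, and darker boxes are overlapping matches. Ccl20, Cxcl1 and Cxcl10 hold κB matches, and Cxcl12 holds none of the 4 motifs.

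Over the 10 genes as a group, TPAC means were above TPC means in 6 and below in 4, where 52.2% and 46.7% of all genes lay above and below. The median log2 difference was 0.07, against 0.02 over all genes. The genotypes did not overlap in 6 of the 10. In Ccl20, Cxcl5 and Cxcl16 both TPAC lines were above both TPC lines, as in 13.7% of all genes, and in Ccl7, Cxcl10 and Cxcl12 both were below, as in 13.3%. The gap between genotypes was 1.64 in Ccl20 and 0.72 in Cxcl5. In Cxcl10, Cxcl12, Cxcl16 and Ccl7 it was 0.34, 0.32, 0.22 and 0.1. Each of these is below the 0.41 to which 95% of genes kept between the closest pair of lines. A TPAC mean higher by a log2 of 1 or more was seen in Ccl20, Cxcl5, Cxcl15 and Cxcl16 (1.69% of all genes), and a mean lower by that much in none of the 10 (2.04% of all genes). These shares belong to the contrast on which the genes were picked, so nothing is read from them. Over the whole array limma called 0 of 19938 genes (0%) when a Benjamini-Hochberg adjusted p up to 0.05 and a difference of at least 0.58 on the log2 scale were asked for. Without adjustment 84 genes met both, and 15 did by the methods' t-test, which also called 0 after adjustment. With 2 lines against 2, an exact permutation test (two-sided) has a smallest possible p of 0.333.

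By line, TPC20223 was the lowest of the 4 in 6 of the 10 genes (38.8% of all genes), Ccl20, Cxcl1, Cxcl5, Cxcl15, Cxcl16 and Cx3cl1, and the highest in Ccl2 and Ccl7 (28.1%). K459 was the lowest in the remaining 4, Ccl2, Ccl7, Cxcl10 and Cxcl12 (24.2%), and the highest in Ccl20 and Cxcl16 (22.6%). TPC18645 was the highest in 5 genes, Cxcl1, Cxcl10, Cxcl12, Cxcl15 and Cx3cl1 (25.2%), and TCPA18654 in Cxcl5 (21.4%). Neither of them was the lowest in any (16.9% and 17.2%). These counts include orders too narrow to read. Cx3cl1 ranged over only 0.32, and Ccl2 was at 10.83 in K459 and 10.84 in TPC18645. The signal ranged over a log2 of 1 or more in 7 of the 10, all but Ccl2, Cxcl12 and Cx3cl1, against 15.9% of all genes. The 10 were picked with their signals in each line known, and none of them is dim, whereas all genes include dim ones. Nothing is therefore read from these shares.

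**Figure D3:**
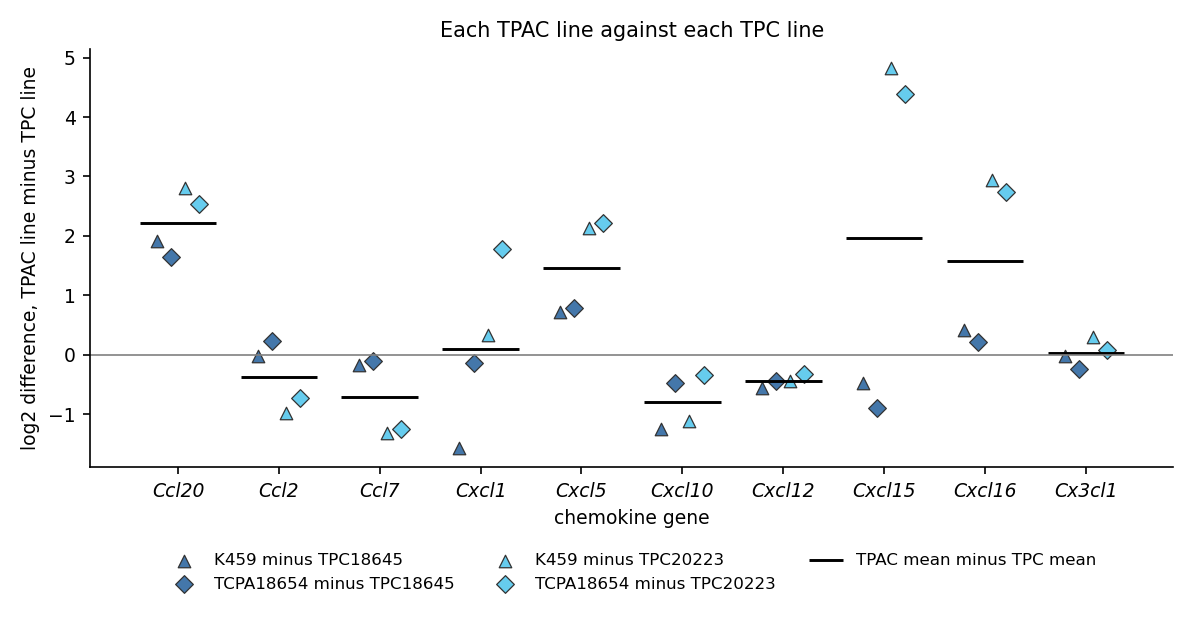
Log2 difference (y axis) of each TPAC line minus each TPC line for the 10 chemokine genes (x axis); symbols give the TPAC line, fill the TPC line, and black bars the difference of the genotype means. For Cxcl15 the points lie at 4.39 and 4.82 against TPC20223 but at -0.90 and -0.47 against TPC18645, whereas all 4 points of Ccl20 lie between 1.64 and 2.80.

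Cxcl5, Cxcl15 and Cxcl16 were low in TPC20223 more than they separated the genotypes. Each lay at least a log2 of 1 below every other line there, which was the case for 2.95% of all genes. Cxcl5, a neutrophil attractant, had signals of 10.17 (TPC18645) and 8.75 (TPC20223) in TPC and of 10.89 (K459) and 10.96 (TCPA18654) in TPAC. The TPAC lines were 0.07 apart and stood 0.72 above the higher TPC line, which in turn stood 1.42 above TPC20223. Without TPC20223 its TPAC minus TPC difference was 0.76 in place of 1.47.

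Cxcl15, also called lungkine, is a mouse chemokine first known from lung epithelium. It was at 11.55 in TPC18645 and 6.26 in TPC20223, and the TPAC lines lay at 11.08 (K459) and 10.65 (TCPA18654). It had the widest range of the 10 genes, 5.29 or 39.1-fold, and ranked 63rd by range of all genes. TPC18645 was the highest and TPC20223 the lowest, so the TPC lines lay on either side of the TPAC lines; the difference of the means, 1.96, became -0.69 without TPC20223.

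Cxcl16, the ligand of Cxcr6 and a scavenger receptor on some cells, had signals of 10.13 (TPC18645) and 7.61 (TPC20223) in TPC and of 10.55 (K459) and 10.35 (TCPA18654) in TPAC. The other 3 lines were within 0.42 of each other, and TPC20223 stood 2.52 below the lowest of them. Without TPC20223 the difference between genotypes was 0.32, where it was 1.58 with all lines. The low signals of these 3 genes came in the line in which the ductal and epithelial markers had the lowest summed signal and the fibroblast markers the highest; the part of these in the result was not tested. Of the 7 macrophage markers, 3 were lowest in this line, near the share of 38.8% of all genes, so nothing is read from this count.

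Ccl2 and Ccl7, the monocyte attractants, went the other way and were highest in TPC20223. Ccl2 had signals of 10.84 (TPC18645) and 11.80 (TPC20223) in TPC and of 10.83 (K459) and 11.07 (TCPA18654) in TPAC. The other lines lay within 0.24 of each other, TPC20223 was 0.73 above the nearest, and the genotypes overlapped. Ccl7 had signals of 10.49, 11.64, 10.32 and 10.39 in the same order of lines, with TPC20223 at 1.15 above the next, and was the 1 member more than a log2 of 1 above every other line there (4.24% of all genes). The other 3 lines of Ccl7 differed by at most 0.17. The TPAC mean of Ccl2 was 10.95 ± 0.17 (SD, n = 2) and the TPC mean 11.32 ± 0.68 (SD, n = 2), and the difference of -0.37 turned to 0.11 without TPC20223; for Ccl7 it went from -0.71 to -0.14. The summed signal of the fibroblast markers was likewise highest in TPC20223, and its part in these values was not tested.

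Cxcl1, a neutrophil attractant and NF-κB target, split the lines in another way. Its signal was 10.75 in TPC18645 and 10.62 in TCPA18654 but 8.84 in TPC20223 and 9.18 in K459. The high pair held 1 line of each genotype and was 0.13 apart, the low pair also held 1 line of each and was 0.34 apart, and at least 1.44 lay between the pairs. This pattern, with a gap of 1 or more, was found in 0.647% of all genes, and its mirror image, seen in none of the 10, in 0.978%. The genotype means were 9.90 ± 1.02 in TPAC and 9.80 ± 1.35 (SD, n = 2) in TPC, a difference of 0.11, far within the spread of either genotype. K459 and TCPA18654, the TPAC lines, differed by a log2 of 1 or more in this gene alone of the 10 (3.87% of all genes).

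Cxcl10 and Cxcl12 were lower in both TPAC lines. Cxcl10, the interferon-induced ligand of Cxcr3, had signals of 9.75 (TPC18645) and 9.61 (TPC20223) in TPC and of 8.50 (K459) and 9.27 (TCPA18654) in TPAC. The TPC lines were 0.14 apart and the TPAC lines 0.77, with K459 the lowest. The difference of the means was -0.80 and became -0.41 without K459 and -0.87 without TPC20223. Cxcl12, which holds stem and immune cells in their niches through Cxcr4, had signals of 11.49, 11.37, 10.93 and 11.05 in the same order. Each genotype had an SD of 0.08 (n = 2), and the difference of -0.44 ranged from -0.50 to -0.38 when any 1 line was left out. It was small, 1.36-fold, but of the members whose genotypes did not overlap it moved least with the choice of lines. The gap between genotypes, 0.32 in Cxcl12 and 0.34 in Cxcl10, was below the 0.41 to which 95% of genes kept between the closest pair of lines.

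Cx3cl1, or fractalkine, varied least. It was at 9.87 in TPC18645 and 9.55 in TPC20223, and at 9.85 (K459) and 9.64 (TCPA18654) in TPAC, a range of 0.32. This is below the 0.41 that 95% of genes kept to between the closest pair of lines, so no order of the lines is read from it.

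**Figure D4:**
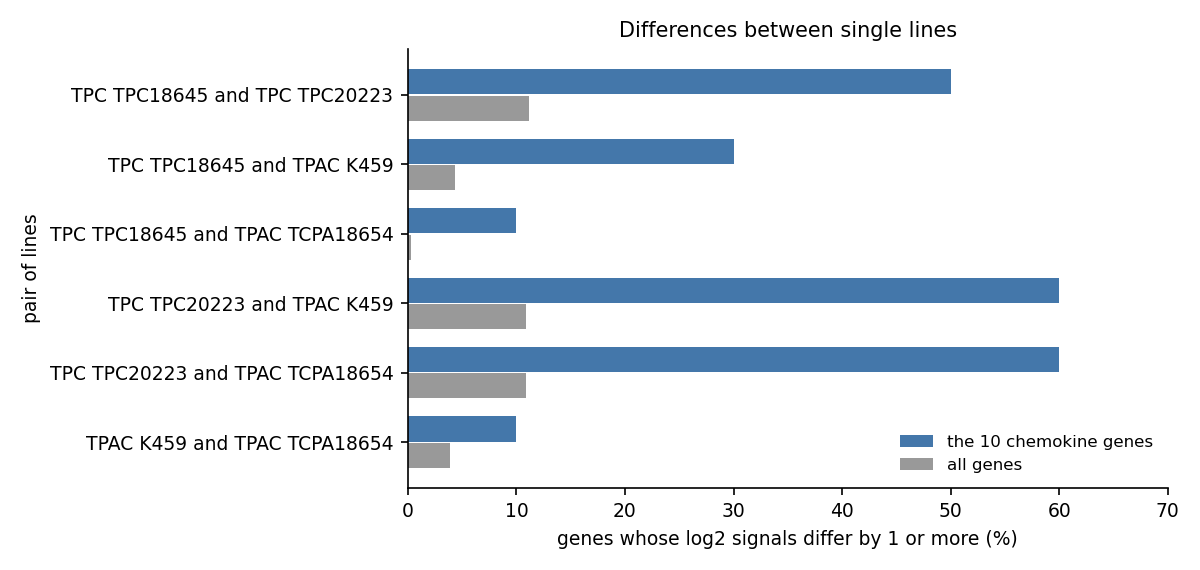
Share of genes whose log2 signals differ by 1 or more (x axis, percent) in each pair of lines (y axis), for the 10 chemokine genes in blue and all 19938 genes in grey. In the pair TPC18645 and TCPA18654 this was Ccl20 alone, or 1 of the 10, against 0.271% of all genes. The 10 genes were picked with these signals known, Ccl20 for separating the genotypes, so the shares are no independent support.

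Between single lines, 5 of the 10 genes differed by a log2 of 1 or more between the TPC lines, Ccl7, Cxcl1, Cxcl5, Cxcl15 and Cxcl16, against 11.2% of all genes. TPC20223 differed by this much in 6 genes from K459 and in 6 from TCPA18654 (10.9% of all genes in each pair), and 5 of them, Ccl20, Ccl7, Cxcl5, Cxcl15 and Cxcl16, were the same. Between TPC18645 and K459 there were 3, Ccl20, Cxcl1 and Cxcl10 (4.34%). Only Ccl20, which was picked for separating the genotypes, passed this size in all 4 pairs that cross them. There was 1 array for each line, so these differences have no replicate check. The genes were picked with these signals known and none is dim, so nothing is read from the shares.

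Members that lie side by side in the genome were alike in profile in some cases and not in others. In the neighbours Cxcl15 and Cxcl1, K459 lay with the higher lines in Cxcl15 (11.08) but with the lower ones in Cxcl1 (9.18). In the gene order of GRCm38.p6, Cxcl5, Cxcl15 and Cxcl1 belong to a run of 7 CXC chemokine genes on chromosome 5, with Ppbp, Pf4, Cxcl3 and Cxcl2 and no other coding gene between them. In this run 6 of 7 genes had their lowest signal in TPC20223, against 38.8% of all genes; the exception was Ppbp, at 8.72 in TPC20223 and 6.98 to 7.77 elsewhere. Of the 6, Pf4 and Cxcl3 were dim, and in Pf4 the lines had a range of only 0.25, too narrow to read an order. Cxcl5, Cxcl15 and Cxcl1, also among the 6, were picked with their signals known, so the count is no support for a shared profile. Ccl2 and Ccl7 are neighbours at one end of a run of 6 CC genes on chromosome 11. Both were highest in TPC20223, whereas Ccl11, Ccl12, Ccl8 and Ccl1 further along were all dim. Genes of these runs are related in sequence, and whether their probes take up RNA of a neighbour was not tested. Cx3cl1 sits between Ccl22 and Ccl17 on chromosome 8. Ccl17 had signals of 8.90 in TPC18645 and 9.0 in TCPA18654 but 6.48 in TPC20223 and 6.95 in K459, a pattern like that of Cxcl1 and unlike that of its neighbour Cx3cl1.

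**Figure D5:**
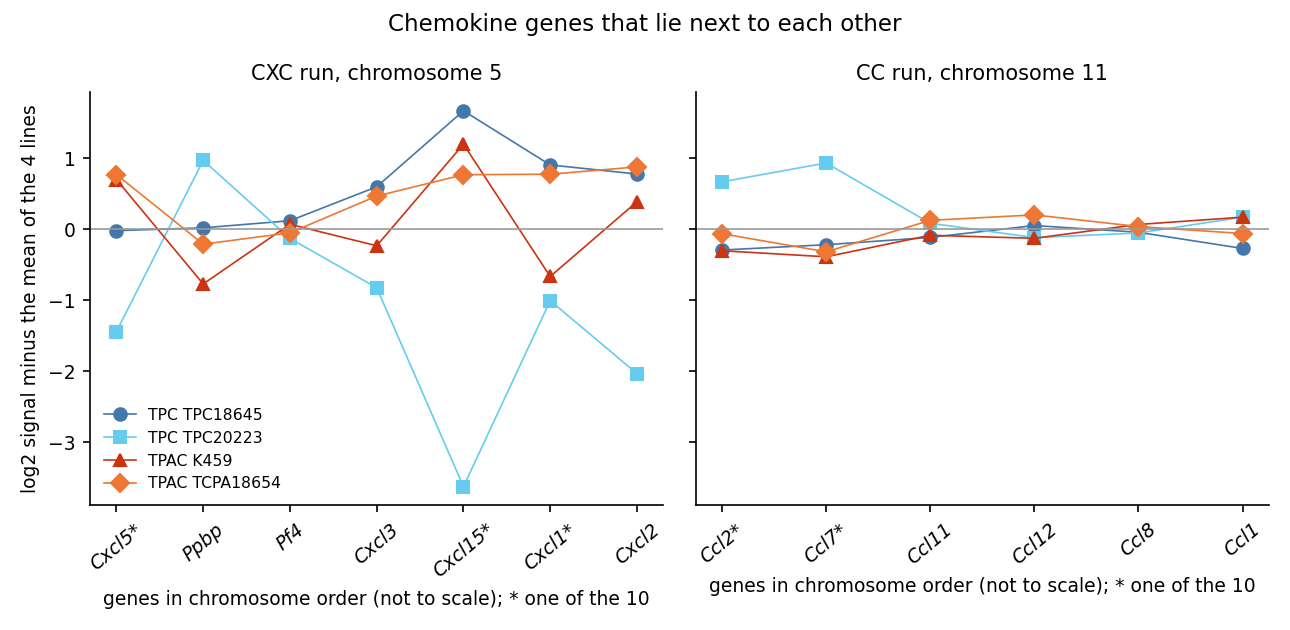
Log2 signal minus the mean of the 4 lines (y axis) for chemokine genes in chromosome order (x axis, not to scale), in the run of 7 CXC genes on chromosome 5 (left) and of 6 CC genes on chromosome 11 (right); asterisks mark the genes followed here and lines join points of 1 cell line. TPC20223 is lowest in 6 of the 7 CXC genes, of which Pf4 and Cxcl3 are dim, and highest in Ccl2 and Ccl7. The genes with asterisks were picked with these signals known.

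Of the remaining 26 chemokine genes, limma called 0. TPAC means were higher in 20 and lower in 6 (52.2% and 46.7% of all genes), with a median difference of 0.10, and 18 were dim. None reached an unadjusted p under 0.05 by limma, and Ccl19 and Ccl8, both dim, did so by the methods' t-test. The largest differences above the dim limit were those of Cxcl14 (-2.71), Cxcl2 (1.26) and Ppbp (-0.99). Cxcl14, a chemokine of epithelia and fibroblasts, was at 12.37 in TPC20223 and at 6.62 to 6.83 in the other lines, so its genotypes overlapped and its difference was 0.16 without TPC20223. Cxcl2, the close relative of Cxcl1, was at 5.66 in TPC20223 and at 8.08 to 8.57 in the others, with a difference of -0.14 without TPC20223; that of Ppbp was then -0.51. TPC20223 was the lowest line in 13 of the 26 and the highest in 6 (38.8% and 28.1% of all genes).

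Receptors for the 10 chemokines were mostly dim in these cells. Of 22 measured chemokine receptor genes, 19 were dim and 0 were called by limma; 0 had an unadjusted p under 0.05, and Ccr7, Cxcr1 and Cxcr5 did by the methods' t-test. Ackr3, Ccr7 and Cx3cr1 were not dim. Ackr3, the decoy receptor of Cxcl12, had signals of 8.61 (TPC18645) and 8.39 (TPC20223) in TPC and of 8.37 (K459) and 8.17 (TCPA18654) in TPAC, a difference of -0.23 between genotypes. Ccr7, the receptor of Ccl19, differed by -0.18 and Cx3cr1, the receptor of Cx3cl1, by 0.02. Cxcr4, the other Cxcl12 receptor, ran from 5.92 in TPC18645 to 7.28 in TPC20223. The Ccl2 receptor Ccr2 was at 4.31 to 4.44, and Ccr4, best known as the receptor of Ccl17 and Ccl22, at 5.48 to 5.73. Ccr6, the receptor of Ccl20, was at 5.89 to 6.22, Ccr1 at 4.26 to 4.79, Cxcr1 at 6.12 to 6.29, Cxcr2 at 4.05 to 4.13 and Cxcr3 at 6.79 to 7.01, all dim. Cx3cr1 itself was at 7.29 to 7.60. Cxcr6, the receptor of Cxcl16, was at 7.41 in TPC20223, where its ligand was lowest, and at 5.55 to 5.59 in the other lines. No detection call comes with these signals, so a dim one may or may not exceed background.

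The 5 other lists also gave no call, and by limma and by the methods' t-test 0 of their genes came under 0.05 without adjustment. Each difference named here is given with all lines and then without TPC20223, an alternative chosen after the values were seen. Over all genes, TPAC means were higher in 52.2%, and TPC20223 was the lowest line in 38.8%.

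Genes for proteins that shed, clip or display chemokines were higher in TPAC in 7 of 14 (median -0.0025). The difference was -1.53 for the gelatinase Mmp2 but 0.35 without TPC20223, -1.44 and -0.23 for the syndecan Sdc2, and -1.27 and -0.49 for Sdc3. Adam10, which sheds Cxcl16 and Cx3cl1, was at 10.13 in TPC20223 and 11.17 to 11.48 elsewhere.

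NF-κB subunits, inhibitors and kinases were higher in 8 of 14 (median 0.06), with 8 of the 14 lowest in TPC20223. Nfkbiz, a nuclear IκB protein, had a difference of 0.97 that became -0.10, and Tnfaip3, the feedback inhibitor A20, one of 0.61 that became -0.97. In Nfkbie, which holds NF-κB in the cytoplasm, it was -0.83 and -0.95, so of these 3 genes only Nfkbie kept its sign. The lower TPAC mean of Nfkbie came mostly from K459 (7.0). TCPA18654 was at 8.32, close to TPC20223 (8.37) and TPC18645 (8.61).

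Inducing cytokines and their receptors were higher in 13 of 18 (median 0.06), and 12 of the 18 were lowest in TPC20223. The interleukin 1 antagonist Il1rn had a difference of 1.13, and 0.99 without TPC20223. For the interferon-γ receptor chain Ifngr1 it went from 1.06 to -0.07 and for Il17re from 0.71 to 0.45. Il17re was at 8.18 in K459 but at 7.03 in TCPA18654, under the 7.16 of TPC18645, so its genotypes overlapped.

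Interferon targets, the company of Cxcl10, were higher in 5 of 13 (median -0.08). Of these 13, 10 were lowest in TPC20223, whereas Cxcl10 was lowest in K459. Usp18, a brake on interferon signalling, had a difference of -0.92, and -1.37 without TPC20223, while Irf1 went from -0.56 to -0.02 and Rsad2 from 0.42 to 0.05.

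Genes of the TGF-α, EGFR and paxillin axis were higher in 9 of 10 (median 0.31), and 9 of the 10 were lowest in TPC20223, where 38.8% of all genes were. The differences of 1.26 for the receptor Erbb3, 1.0 for the ligand Hbegf and 0.58 for Tgfa became 0.60, 0.03 and 0.05 without that line. Erbb3 was at 9.44 in K459 but at 7.84 in TCPA18654, under the 8.04 of TPC18645, so its genotypes overlapped.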

How the data were processed

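Each of the 4 cell lines, 2 of each genotype, had its RNA hybridised to 1 Affymetrix Mouse Gene ST array. The authors deposited log2 signals made by RMA, which subtracts background, equalises the distributions of the arrays and summarises probes; Affymetrix Expression Console 1.4 is named in the submitters' processing notes. Array batches and filters are not given in the sources used here. Such values cannot show whether a line holds more RNA in total, and precision is limited by having 4 arrays.

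Of 28941 transcript clusters, 21789 carried 1 gene symbol in the platform annotation, 1621 several and 5531 none; 21698 matched RefSeq (GRCm38.p6) by Entrez number, and 0 symbols changed. The cluster of highest mean stood for each gene (19938 genes). The 10 members and the 7 gene lists were chosen with earlier results of these data known. The genotypes were compared over all genes in R 4.3.3 with limma 3.58.1, using lmFit and eBayes (two-sided), at the thresholds the study states for another contrast; p-values reflect only how these lines vary. The steps were tested on simulated data. Named are the members, Rela, the receptors of the members and the 5 genes most like Ccl20. Of each list, the 3 genes of largest difference that are not dim are also named. Cd14, Cd68, Kdr, Tek, Epcam, Sox9, Adam10, Akr1c19 and the genes passing the t-test were added after their values were seen. So were those of the closing section, the differences of list genes without TPC20223 and those named by genome position. A summed marker signal is the log2 of the sum of linear signals. Of the 127 listed genes 117 were measured. Genes were called neighbours with at most 2 other coding genes between them. Protein sequences were not analysed here. The settings varied were the scaling (cyclic loess, or arrays shifted to a common median), averaging a gene's clusters, leaving out dim genes, an intensity trend, other thresholds, the methods' t-test and leaving out each line.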

Additional observations from a re-analysis of the deposited data

How the results depend on the processing

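Shifting arrays to a common median, cyclic loess, averaging a gene's clusters and leaving out dim genes changed the direction of none of the 10 chemokines and none of the counts by more than 1.5 times, and under each of these settings Ccl20 kept the widest gap among genes with both TPAC lines above both TPC lines (1.62 to 1.68). With adjusted p-values limma called 0 genes in all settings; without adjustment 84 genes passed, or 15 by the methods' t-test. With 1 line left out, the differences ranged from 1.78 to 2.67 for Ccl20, 0.76 to 2.18 for Cxcl5, 0.32 to 2.84 for Cxcl16, -1.29 to -0.14 for Ccl7, -1.18 to -0.41 for Cxcl10 and -0.50 to -0.38 for Cxcl12. They changed sign for Ccl2 (-0.85 to 0.11), Cxcl1 (-0.85 to 1.06), Cxcl15 (-0.69 to 4.61) and Cx3cl1 (-0.13 to 0.20). Each of these 4 changed sign without TPC20223, Cx3cl1 also without K459 and Cxcl1 also without TCPA18654. The median over the 10 ranged from -0.18 to 0.63 and the count of genes whose genotypes did not overlap from 6 to 10, as fewer arrays leave less room for overlap. At a log2 difference of 0.58 in place of 1, 3 chemokines differed between TPC18645 and TCPA18654 and 2 between K459 and TCPA18654. No paired analysis was possible because the labels give the lines no replicate numbers shared between genotypes. Leaving 1 line out leaves 1 array in a genotype, which limma takes to vary like the others.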

Other observations

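The split of the lines seen in Cxcl1, with TPC18645 and TCPA18654 both above TPC20223 and K459 by a log2 of 1 or more, was found in 129 of 19938 genes (0.647%). Among the 117 measured genes of the lists, 7 had it: the chemokines Ccl9 and Ccl17, the NF-κB feedback gene Tnfaip3, the TNF receptor Tnfrsf1b, the interferon targets Oasl1 and Mx1, and the EGFR ligand Ereg. Ccl9 had signals of 9.95 in TPC18645 and 10.28 in TCPA18654, against 7.14 in TPC20223 and 8.30 in K459. Tnfaip3 had 10.65 and 10.57 against 7.5 and 8.80. The mirror pattern, with TPC18645 and TCPA18654 both lower by that much, was found in 195 genes (0.978%), and among the lists in the matrix metalloproteinases Mmp2 and Mmp14. Mmp2 had signals of 9.26 in TPC18645 and 7.60 in TCPA18654, against 13.02 in TPC20223 and 11.62 in K459. These genes were chosen after their values were seen, and both patterns hold 1 line of each genotype on either side.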
